A study of Chlamydomonas reinhardtii with 6 samples.

Results

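Transcripts of 7 genes of intraflagellar transport were followed in the unicellular green alga Chlamydomonas reinhardtii: IFT52, IFT74, IFT81, IFT88, IFT172, IFT140 and FLA10. They were chosen by gene identifier, a rule that uses no measured value, but with earlier results of these data known. All 7 were found among the 17736 gene models of the deposited table. All 7 also passed the filter of a mean of at least 1 FPKM (counts scaled by gene length and by the total of the library) that left 10878 genes for testing. Their names came with the choice of identifiers. Neither the deposited table nor the RefSeq gene table used here pairs an identifier with a name, so the names could not be checked against either.

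The libraries came from wild type (WT) cells and from a knockout of CMD1 (cmd1 KO), a relative of the TET dioxygenases that oxidise methylated cytosine in animal DNA. Both were of strain CC125, with 3 biological replicates each, numbered 1 to 3 in both genotypes. Every culture was grown in acetate medium at 25 °C under dim light of 20 µmol photons per m2 per s, and was then moved to a high salt medium under stronger light of 300 µE, so that there was no library from dim light alone. The number of independent knockout clones is not given here, and the level of CMD1 itself was not analysed here. Total counts per library ran from 38875025 to 47869886. Libraries of replicate 3 stood apart from those of replicates 1 and 2 in both genotypes, and values are therefore given for replicates 1 and 2 and for replicate 3 apart. The factors of the trimmed mean of M-values (TMM), which adjust library sizes to the bulk of genes, also set cmd1 KO replicates 1 and 2 apart, at 0.515 and 0.489 against 1.29 to 1.70 in the other 4 libraries. Levels in FPKM or by library size alone therefore give lower cmd1 KO values in these 2 libraries than TMM-scaled levels do.

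Intraflagellar transport carries building blocks such as tubulin along the microtubules of the flagellum, and it was first seen in this alga. Trains made of the complexes IFT-A and IFT-B are pulled towards the flagellar tip by kinesin-2 and brought back by a cytoplasmic dynein. IFT-B is mainly linked with movement to the tip and IFT-A with the return. Cells that have lost their flagella raise the transcripts of flagellar genes while they grow new ones. Of the genes described here, 5 encode IFT-B proteins, and IFT140 and FLA10 encode an IFT-A protein and a kinesin-2 motor subunit.

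All 7 genes were highest in the libraries of replicate 3, in both genotypes, and in FPKM they were lowest in cmd1 KO replicates 1 and 2. Scaled by TMM, IFT52 was the exception, at 25.2 and 28.1 CPM (counts scaled by library total) in replicates 1 and 2 of cmd1 KO against 21.4 and 22.6 in those of WT. In each of the 7, cmd1 KO replicates 1 and 2 lay below WT replicates 1 and 2 in FPKM, whereas cmd1 KO replicate 3 lay above both of them. The same arrangement was found in 38.7% of all tested genes. The genotypes therefore overlapped in FPKM in all 7, while they did not overlap in 30.8% of all tested genes (23% after TMM scaling).

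IFT52, an IFT-B core protein whose loss leaves Chlamydomonas cells without flagella, had the highest FPKM of the 7 in every library. The gene (Cre04.g219250.v5.5) lies on chromosome 4 from 2093096 to 2096928 (assembly v5.5), and the deposited FPKM were computed with a length of 2465 bases, the shortest of the 7. Its level was 11.4, 11.9 and 46.1 FPKM in WT replicates 1, 2 and 3, and 5.27, 5.57 and 43.2 FPKM in cmd1 KO replicates 1, 2 and 3. These values rested on 1263, 1207 and 4442 counts in WT and on 622, 547 and 4138 counts in cmd1 KO. In FPKM the cmd1 KO level was thus 46.4%, 47.0% and 93.6% of WT in replicates 1, 2 and 3, and with TMM scaling it was 118%, 124% and 116%. On either scale IFT52 kept the highest share of the WT level of the 7 in replicates 1 and 2.

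IFT74 and IFT81 form a coiled-coil pair within the IFT-B core that binds tubulin, and their transcripts moved closely together. IFT74 (Cre01.g027950.v5.5), on chromosome 1 from 4204163 to 4208957 and with a length of 2740 bases, stood at 5.61, 6.66 and 25.3 FPKM in WT replicates 1, 2 and 3 and at 1.63, 1.36 and 18.7 FPKM in cmd1 KO. Its counts were 693, 754 and 2712 in WT and 214, 148 and 1992 in cmd1 KO. IFT81 (Cre17.g723600.v5.5), on chromosome 17 from 3362408 to 3368081 and with a length of 3435 bases, stood at 3.97, 4.15 and 16.7 FPKM in WT and at 1.20, 1.03 and 13.6 FPKM in cmd1 KO, from 615, 589 and 2244 counts and 197, 141 and 1821 counts. The ratio of IFT74 to IFT81 in FPKM stayed between 1.32 and 1.61 in the 6 libraries, although the level of each gene varied more than 10-fold between its lowest and highest library. The ratio was 1.41, 1.61 and 1.52 in WT replicates 1, 2 and 3 and 1.36, 1.32 and 1.37 in cmd1 KO, so the genotypes did not overlap in it, by a small margin. This ratio is a description without a test. How many other gene pairs separate the genotypes in this way was not computed.

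IFT88, an IFT-B core protein whose mouse counterpart is needed to build cilia, is Cre07.g335750.v5.5 and lies on chromosome 7 from 3486976 to 3492847, with a length of 3403 bases. It stood at 4.98, 5.60 and 21.4 FPKM in WT replicates 1, 2 and 3 (764, 788 and 2848 counts) and at 0.994, 1.05 and 16.2 FPKM in cmd1 KO (162, 142 and 2143 counts). The cmd1 KO level in FPKM was 20.0%, 18.7% and 75.6% of WT in the 3 same-numbered pairs, and 50.7%, 49.5% and 93.4% with TMM scaling.

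IFT172, a large IFT-B protein at the periphery of the complex, had the lowest cmd1 KO level relative to WT of the 7 in replicates 1 and 2. The gene (Cre17.g703900.v5.5) spans chromosome 17 from 1080806 to 1090529 and its length of 6034 bases is the greatest of the 7. It stood at 6.30, 9.37 and 27.5 FPKM in WT replicates 1, 2 and 3 (1715, 2335 and 6472 counts) and at 0.623, 0.595 and 21.3 FPKM in cmd1 KO (180, 143 and 4989 counts). In WT it ranked second of the 7 in each library, and in cmd1 KO replicates 1 and 2 it ranked sixth. Its level in cmd1 KO was 9.89%, 6.35% and 77.5% of WT in FPKM in pairs 1, 2 and 3, and 25.1%, 16.8% and 95.7% with TMM scaling.

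IFT140, the IFT-A protein of the set, had the lowest FPKM of the 7 in all 6 libraries. The gene (Cre08.g362650.v5.5) is on chromosome 8 from 1127044 to 1138045, with a length of 4744 bases. Its level was 2.75, 3.66 and 9.99 FPKM in WT replicates 1, 2 and 3 (589, 717 and 1852 counts) and 0.493, 0.577 and 7.75 FPKM in cmd1 KO (112, 109 and 1430 counts). The 109 counts of cmd1 KO replicate 2 were the fewest of any member, with an exact Poisson 95% interval of 89.5 to 131 that covers counting error only.

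FLA10, the kinesin-2 motor subunit, is Cre17.g730950.v5.5 and lies on chromosome 17 from 4321023 to 4328810, with a length of 3165 bases. A temperature-sensitive allele of this gene is the classical tool for stopping intraflagellar transport in Chlamydomonas. It stood at 5.73, 7.29 and 16.2 FPKM in WT replicates 1, 2 and 3 (818, 953 and 2001 counts) and at 1.32, 1.24 and 16.1 FPKM in cmd1 KO (200, 156 and 1985 counts). In FPKM the cmd1 KO level was 23.0%, 16.97% and 99.7% of WT in replicates 1, 2 and 3. With TMM scaling it was 58.5%, 44.9% and 123.1%, and the share in replicate 3 was the highest of the 7 on both scales.

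**Figure D1:**
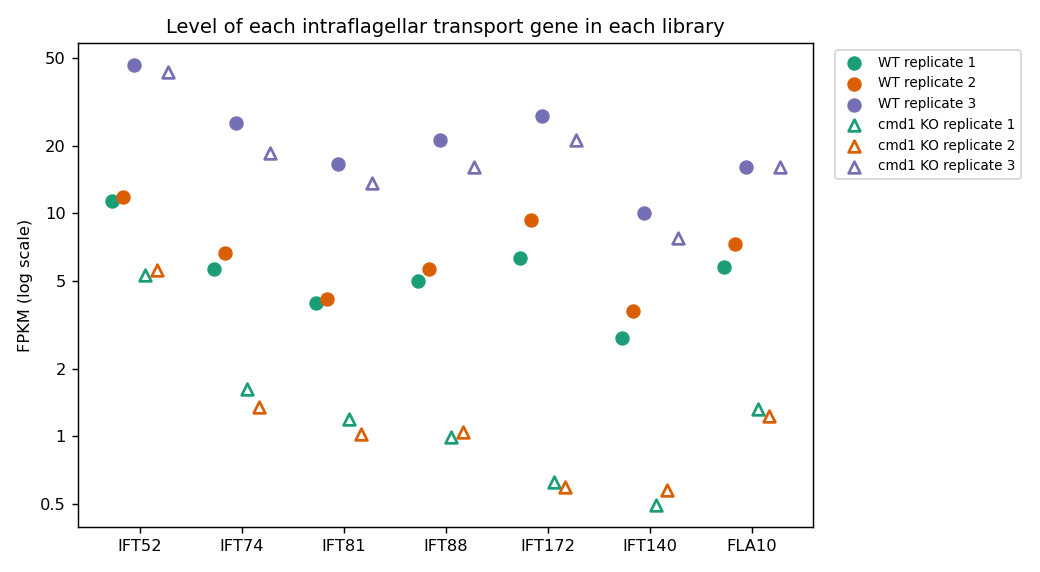
FPKM (log scale) of the 7 intraflagellar transport genes in each of the 6 libraries, filled circles for WT and open triangles for cmd1 KO, coloured by replicate number. For every gene both libraries of replicate 3 lie highest, and cmd1 KO replicates 1 and 2 lie below WT replicates 1 and 2.

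Several neighbours in the order of WT levels could not be separated. The mean FPKM fell from IFT52 (23.1 ± 19.9, SD, n = 3) through IFT172 (14.4 ± 11.4), IFT74 (12.5 ± 11.1), IFT88 (10.7 ± 9.32), FLA10 (9.73 ± 5.64) and IFT81 (8.28 ± 7.31) to IFT140 (5.47 ± 3.94). Replicate 3 was high for each gene and widened these SDs, and neighbours were therefore compared within libraries. The log2 ratio of IFT88 to FLA10 averaged -0.06 ± 0.41 (SD, n = 3) and that of FLA10 to IFT81 0.43 ± 0.44, so that neither exceeded its spread. The other 4 steps of the WT order had the same sign in 3 of 3 libraries and a mean above their SD, for example 0.65 ± 0.27 for IFT52 over IFT172. In cmd1 KO the mean FPKM ran from 18.0 ± 21.8 for IFT52 to 2.94 ± 4.17 for IFT140. There IFT172 against IFT74 (-0.80 ± 0.86) and IFT88 against IFT81 (0.00 ± 0.26) did not exceed their spread.

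Replicate 3 differed from replicates 1 and 2 more than the genotypes did within replicate 3. In WT, replicate 3 exceeded the mean of replicates 1 and 2 by 2.49-fold (FLA10) to 4.13-fold (IFT74) in FPKM. All 7 were at least 2-fold higher, as were 25.6% of all tested genes, whose median ratio was 1.29. After TMM scaling the members' ratios ran from 1.90 to 3.16 with a median of 3.04, against a median of 0.989 over all tested genes, and 6 of 7 reached 2-fold, against 16.4% of all tested genes. In cmd1 KO the same ratios ran from 7.97 (IFT52) to 34.9 (IFT172) in FPKM and from 2.90 to 12.7 after TMM scaling, where the medians over all tested genes were 2.99 and 1.09. These ratios each compare 1 library with 2 and carry no test. The labels name no batch, and whether culture state or library preparation set replicate 3 apart was not tested. In bulk RNA, fewer cells with a transcript and less transcript per cell cannot be told apart.

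The summed counts of the 7 genes were lower in cmd1 KO in each same-numbered pair by library size alone, by less than the spread between replicates of 1 genotype. They made up 143, 178 and 578 CPM by library size alone in WT replicates 1, 2 and 3, and 35.2, 34.8 and 476 CPM in cmd1 KO replicates 1, 2 and 3. The means were 299.5 ± 241.5 (SD, n = 3) in WT and 182 ± 254.5 (SD, n = 3) in cmd1 KO, a difference of -118 CPM (exact permutation test over libraries, two-sided, p = 0.5, where 3 against 3 cannot go below 0.1). The differences within pairs 1, 2 and 3 were -108, -143 and -102 CPM (SD 22.1). An exact two-sided permutation test on these pairs, added after the values were seen, gave p = 0.25, and 3 pairs cannot give less. With TMM scaling the sums were 109.5, 137 and 339 CPM in WT and 68.4, 71.1 and 345 CPM in cmd1 KO, and the differences within pairs were -41.1, -66.2 and 5.70 CPM, no longer of the same sign (p = 0.5 in the same exact test).

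Within a library, the make-up of the 7 transcripts is free of any scaling between libraries, but not of the trend with gene length. IFT52 is the shortest of the 7 (2465 bases) and IFT172 the longest (6034 bases). Over all tested genes the TMM-scaled log2 ratio had Spearman correlations with length of -0.551 and -0.568 in pairs 1 and 2. The part of length in the shares was not tested. IFT52 held 27.9%, 24.4% and 28.3% of the summed FPKM of the 7 genes in WT replicates 1, 2 and 3, and 45.7%, 48.8% and 31.6% in cmd1 KO. IFT172 held 15.5%, 19.3% and 16.8% in WT and 5.40%, 5.21% and 15.5% in cmd1 KO, where replicate 3 lay within the WT range. The ratio of IFT52 to IFT172 was 1.80, 1.27 and 1.68 in WT and 8.46, 9.36 and 2.03 in cmd1 KO. This ratio was picked after the values were seen and is a description. The shares of IFT81 (8.54% to 10.4%) and IFT74 (11.9% to 15.5%) varied least relative to their size, and their ranges overlapped between the genotypes.

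**Figure D2:**
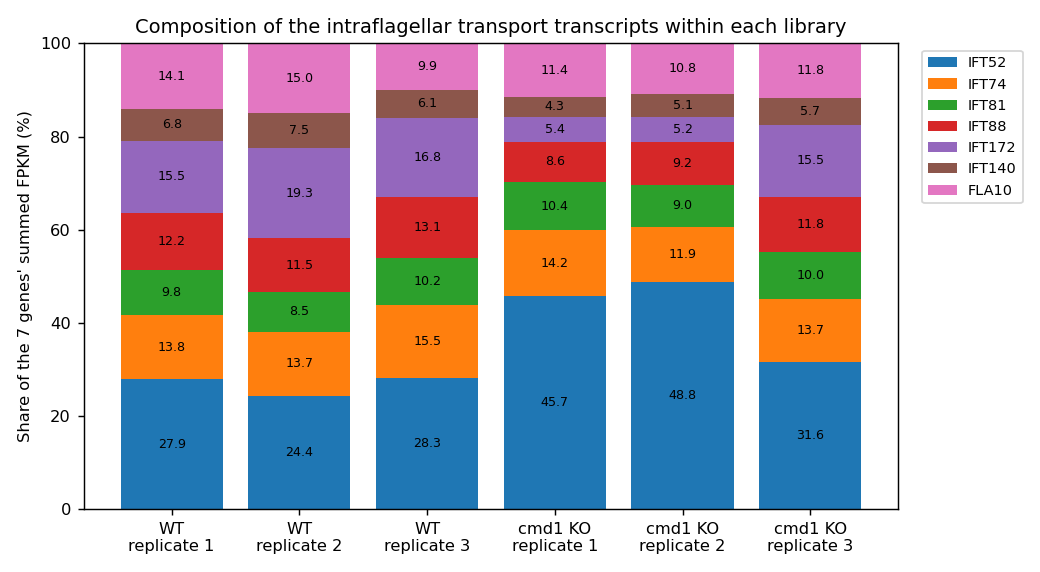
Share of each gene in the summed FPKM of the 7 intraflagellar transport genes (percent, bars from 0 to 100), in each of the 6 libraries. In cmd1 KO replicates 1 and 2 the IFT52 share is 45.7% and 48.8% and the IFT172 share 5.40% and 5.21%, while cmd1 KO replicate 3 resembles WT more closely, at 31.6% and 15.5%. IFT52 is the shortest of the 7 genes and IFT172 the longest, and the shares are not corrected for the trend with length.

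Over all 6 libraries none of the 7 genes passed the test for a genotype difference. edgeR's quasi-likelihood test with TMM scaling with Benjamini-Hochberg adjustment called 0% of the 10878 genes, 0 in all, at a threshold of 0.05. Before adjustment 958 genes, or 8.81%, were lower and 994 were higher at 0.05, and DESeq2 called 688 genes, or 6.32%, after adjustment. None of the 7 members was among any of these. Their log2 differences (cmd1 KO minus WT) ran from -0.66 (SE 1.07, adjusted p = 0.761) for IFT172 to 0.24 (SE 0.65, adjusted p = 0.868) for IFT52, with a median of -0.32 against -0.05 over all tested genes. The call depended on cmd1 KO replicate 3: without that library edgeR called 20.7% of genes lower, among them IFT172 at -2.95 (SE 0.60, adjusted p = 0.0168), IFT140 at -1.75 (SE 0.52, adjusted p = 0.0446) and FLA10 at -1.35 (SE 0.39, adjusted p = 0.0431).

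Within replicates 1 and 2, 6 of the 7 genes fell in cmd1 KO and IFT52 did not pass the test. In this comparison, 2 libraries against 2 with TMM scaling, edgeR called 37.9% of 10874 tested genes lower and 34.4% higher, so a lower call was common among all genes. Over all 6 libraries the TMM factors of the 2 cmd1 KO libraries, 0.515 and 0.489, were the lowest. For this fit the factors were computed again from its own libraries. The part of TMM scaling in the result was not tested beyond the fit with library sizes alone. IFT172 fell by 2.32 on the log2 scale (SE 0.19, adjusted p = 1.28e-12), over a gene length of 6034 bases. IFT140 fell by 1.22 (SE 0.22, adjusted p = 7.05e-06), at 4744 bases. IFT88 fell by 1.01 (SE 0.19, adjusted p = 2.11e-05) at 3403 bases, and FLA10 fell by 0.98 (SE 0.19, adjusted p = 2.36e-05) at 3165 bases. Of the tubulin-binding pair, IFT74 fell by 0.67 (SE 0.19, adjusted p = 0.00238) at 2740 bases, and IFT81 fell by 0.50 (SE 0.20, adjusted p = 0.0237) at 3435 bases. IFT52 stood at 0.27 (SE 0.16, adjusted p = 0.128) at 2465 bases.

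The members' median was -0.98 against -0.08 over all tested genes with TMM scaling, a difference of -0.90. A change to library sizes alone moves all genes nearly alike, here to medians of -2.35 and -1.44, and so leaves that difference as it is. With the length trend of each library removed, the members' median stood at -0.37 relative to that of all tested genes. With library sizes alone all 7 fell, IFT52 included (-1.10, SE 0.16, adjusted p = 2.94e-06 in edgeR), where 78.8% of all tested genes were called lower. In the distribution of log2 differences over the tested genes, IFT172 lay at percentile 5.9 and IFT52 at percentile 60, with TMM scaling. With the length trend removed they lay at percentiles 17.7 and 67.2. Removal of the length trend of each library ended the calls of IFT88, IFT74, IFT81 and IFT140, left IFT172 at -0.97 (adjusted p = 5.47e-05) and FLA10 at -0.44 (adjusted p = 0.0353) called lower, and put IFT52 at 0.42 (adjusted p = 0.0156), called higher, where edgeR called 30.2% of all tested genes lower and 32.2% higher. Leaving out WT replicate 1 or cmd1 KO replicate 2 ended the call of IFT81, at adjusted p-values of 0.0665 and 0.0875 in edgeR. Leaving out WT replicate 2 ended those of IFT74 (adjusted p = 0.0649) and IFT81 (adjusted p = 0.133).

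Replicate 3 has a single library per genotype, so its genotype effect has no spread of its own and can be set against that of replicates 1 and 2 only if its libraries are assumed to vary as those do. Under that assumption 4 of the 7 genes passed the test of the difference, with a less negative effect in replicate 3. In this edgeR interaction test 50.7% of all tested genes passed an adjusted p of 0.05, and 27.3% of all tested genes did so with a more positive effect in replicate 3. The difference was 2.25 on the log2 scale for IFT172 (SE 0.31, adjusted p = 1.69e-06), 1.27 for FLA10 (SE 0.30, adjusted p = 0.00113), 1.15 for IFT140 (SE 0.32, adjusted p = 0.00478) and 0.90 for IFT88 (SE 0.29, adjusted p = 0.0125). IFT74 at 0.53, IFT81 at 0.50 and IFT52 at -0.07 did not pass, with adjusted p-values of 0.14, 0.158 and 0.851 in edgeR. With library sizes alone all 7 passed in this direction, as did 58.7% of all tested genes, and with the length trend removed IFT172 and FLA10 did, as did 19.2%.

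**Figure D3:**
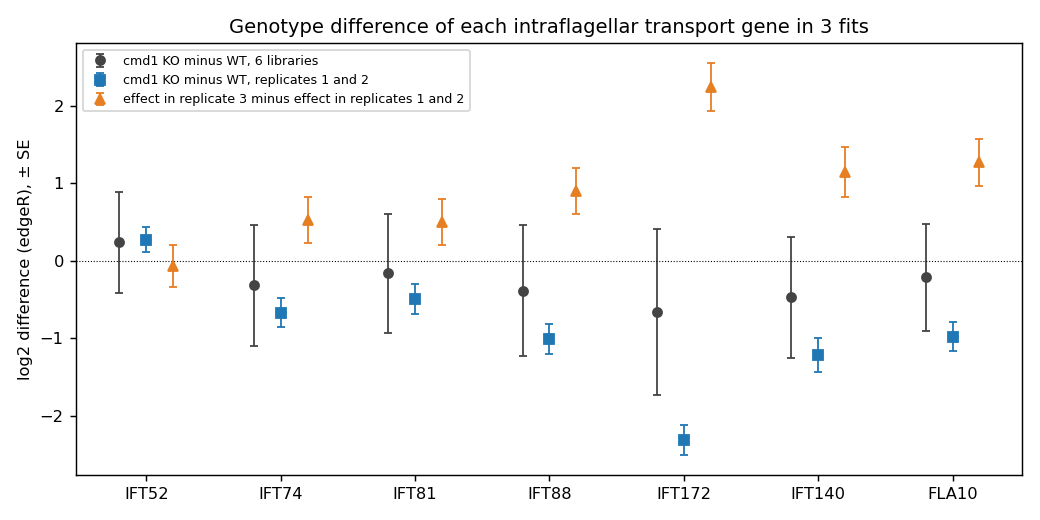
log2 differences of the 7 genes with their SE from edgeR, for cmd1 KO minus WT over 6 libraries (circles), for the same within replicates 1 and 2 (squares), and for the effect in replicate 3 minus that in replicates 1 and 2 (triangles). IFT172 has the largest values of the 7, -2.32 within replicates 1 and 2 and 2.25 for the difference of effects.

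Among the 7 genes the deficit in cmd1 KO replicates 1 and 2 tended to grow with gene length, but not gene by gene. The TMM-scaled log2 ratio of same-numbered libraries was 0.24 and 0.31 for IFT52 (2465 bases) in pairs 1 and 2, and -1.99 and -2.57 for IFT172 (6034 bases). At 3435 bases IFT81 stood at -0.38 and -0.61, a smaller deficit than in the shorter IFT74 (-0.44 and -0.89) and FLA10 (-0.77 and -1.16). Across the 7 genes, which share libraries and are not replicates, the ratio and log2 length had a Pearson correlation of -0.926 in pair 1 and -0.877 in pair 2 (Spearman -0.786 and -0.75), and of -0.4 in pair 3 (Spearman -0.179). Over all tested genes the Spearman correlations with length were -0.551, -0.568 and -0.182 in pairs 1, 2 and 3. The part of length in the genotype difference of single members was not tested beyond the length-corrected values given above.

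Set against tested genes of the same length class, IFT172 was the only member outside the quartiles of its class in replicates 1 and 2. The tested genes were cut into 5 equal classes by length, of which the longest spans a wide range. By definition many genes of any class lie outside its quartiles, so that such a place is common. In the longest class, 3740 to 33247 bases, the median log2 ratio was -1.15 in pair 1 and -1.36 in pair 2, with lower quartiles of -1.81 and -2.12. IFT172 lay under both quartiles, while IFT140, of the same class, lay at -1.14 and -1.26, close to the medians. IFT74, IFT81, IFT88 and FLA10 belonged to the class of 2693 to 3739 bases, with medians of -0.48 and -0.61, and ranged from -0.38 (IFT81) to -0.98 (IFT88) in pair 1 and from -0.61 (IFT81) to -1.16 (FLA10) in pair 2, within the quartiles of their class. In pair 3 the 7 ratios ran from -0.13 (IFT74) to 0.30 (FLA10), with a median of -0.06 against -0.01 over all tested genes. FLA10 lay above the upper quartile of its class there, 0.21.

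**Figure D4:**
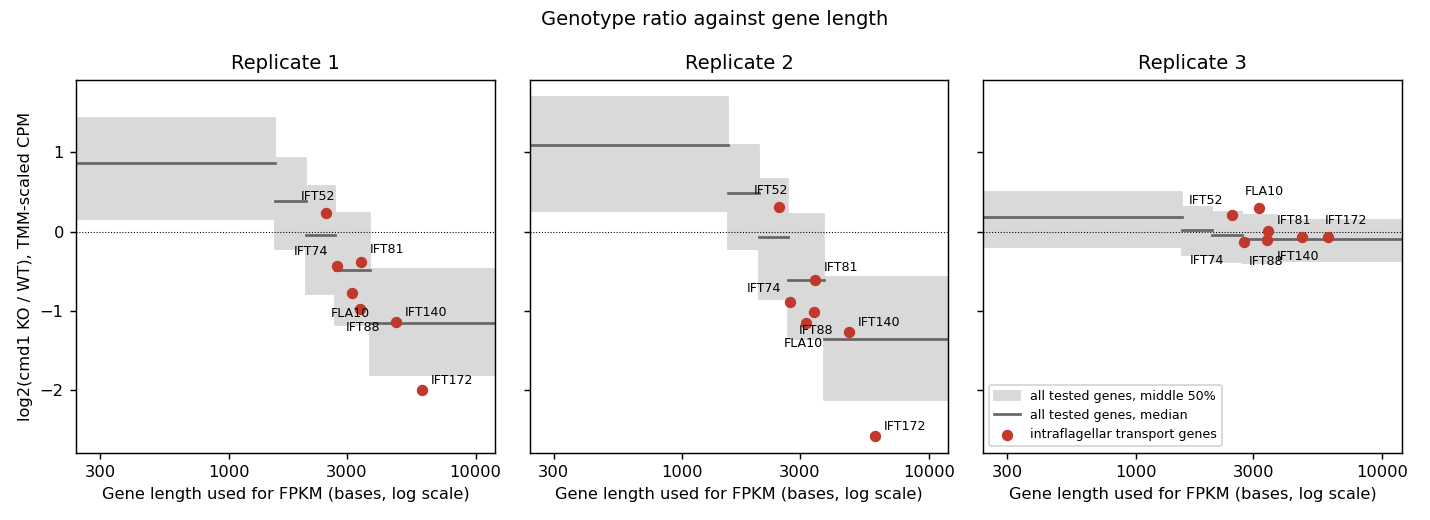
log2 ratio of cmd1 KO to WT (TMM-scaled CPM) against the gene length used for FPKM (bases, log scale, shown to 12000), one panel per replicate. Grey bars give the middle 50% and lines the median of all tested genes in 5 length classes, red points the 7 genes. In replicates 1 and 2 IFT172 lies under the grey range of its class, and in replicate 3 the 7 ratios lie between -0.13 and 0.30.

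IFT172 lies in a stretch of chromosome 17 in which many genes were low in cmd1 KO replicates 1 and 2. The 10 tested genes to its left, from 990476 to 1080695, stood at medians of -2.90, -3.48 and 0.06 for the TMM-scaled log2 ratios of pairs 1, 2 and 3, and all 10 lay below -1 in pairs 1 and 2. For the 10 tested genes to its right, from 1120490 to 1176580, the medians were -1.57, -1.66 and -0.11, and 6 of 10 lay below -1 in each of pairs 1 and 2. Of all tested genes, 24.3% lay below -1 in pair 1 and 27.5% in pair 2. Among these 20 genes, whose median length was 2079 bases, 10 had a lower ratio than IFT172 in pair 1 and 9 in pair 2. Around the other 6 members, the 20 nearest tested genes had medians from -0.97 (IFT88) to 0.36 (IFT74) in pair 1 and from -0.77 to 0.19 for the same genes in pair 2. The part of the chromosomal position in the IFT172 difference was not tested.

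The gene model just left of IFT172, Cre17.g703850, had the same order of levels over the 6 libraries. Its end lies 111 bases before the start of IFT172, and no name or role is given for it in the tables used here. It stood at 7.81, 8.99 and 37.6 FPKM in WT replicates 1, 2 and 3 and at 1.45, 1.11 and 33.7 FPKM in cmd1 KO. It too was highest in both libraries of replicate 3. The same arrangement of cmd1 KO around WT replicates 1 and 2 was found in 38.7% of all tested genes. Its TMM-scaled log2 ratios in pairs 1 and 2 were -1.08 and -1.61, against -1.99 and -2.57 for IFT172. The next model on the right held at most 9 counts in any library. None of the 7 genes overlapped another gene model of the RefSeq table. Whether reads were counted by strand is not stated.

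**Figure D5:**
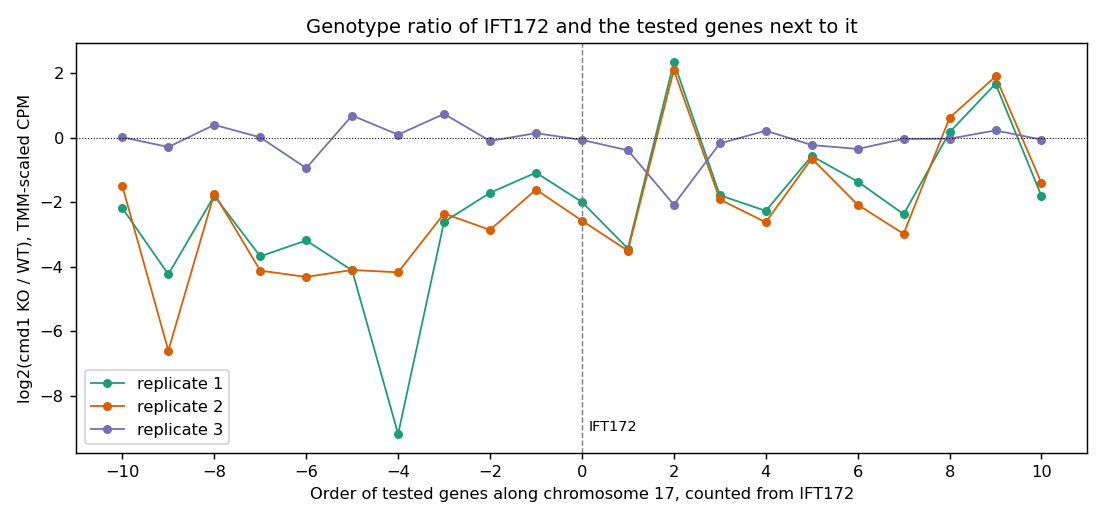
log2 ratio of cmd1 KO to WT (TMM-scaled CPM with 0.02 added) for IFT172 at position 0 and the 10 tested genes on either side, in their order along chromosome 17, one line per replicate. In replicates 1 and 2 all 10 genes on the left lie below -1, and in replicate 3 most of the 20 lie near 0; the lowest point in replicate 1 is a gene with 0 counts in cmd1 KO, whose depth on the axis is set by the 0.02.

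The 7 genes shared a pattern over the 6 libraries that many other genes shared too. The Pearson correlation of log2(FPKM + 1) between members ran from 0.9492 (IFT172 and IFT52) to 0.9985 (IFT88 and IFT74) over the 21 pairs, with a median of 0.9895. These correlations rest on 6 libraries in 3 sets and are a description. Of the tested genes outside the 7, 2550, or 23.5%, correlated at 0.95 or more with the members' mean profile. IFT88 followed the mean of the other 6 members most closely, at r = 0.9992, ninth among 10872 genes, and IFT52 least, at 0.976. The genes outside the set that were most alike were Cre12.g487950 and Cre05.g243151, both at r = 0.9997. Cre12.g487950 stood at 1.84, 2.26 and 7.52 FPKM in WT replicates 1, 2 and 3 and at 0.172, 0.184 and 6.64 FPKM in cmd1 KO. Cre05.g243151 stood at 2.31, 2.47 and 5.64 FPKM in WT and at 0.796, 0.778 and 5.04 FPKM in cmd1 KO.

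The other genes of the pathway could not be described. A list of 31 symbols of further IFT-B and IFT-A proteins, kinesin-2 and dynein subunits and the BBSome was set up, and 0 of them were found among the symbols of the RefSeq gene table, which holds locus tags only.

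The authors' deposited table gave all 7 genes as lower in cmd1 KO. Its log2 fold changes were -2.67 for IFT172, -1.86 for IFT140, -1.73 for IFT88, -1.60 for FLA10, -1.51 for IFT74, -1.35 for IFT81 and -0.77 for IFT52 in the authors' deposited table. The median over all genes in the authors' deposited table was -1.22, with 84.9% of genes lower, so IFT52 stood above the median gene. Unadjusted, the p of the 7 ran in the authors' deposited table from 0.00978 for IFT88 to 0.0411 for IFT52. Of all 17736 genes there, 9112 were lower with an unadjusted p under 0.05, so such a value was common. Adjusted over all genes by Benjamini-Hochberg, those of the authors' deposited table came to 0.0541 to 0.0827 for the 7 genes, so that none passed 0.05. An edgeR model with a replicate 3 term and unscaled library sizes called 0 of 10878 tested genes, at a smallest adjusted p of 0.0544.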

How the data were processed

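Trizol RNA went into a stranded total RNA library kit, per the labels' protocols. FastQC 0.11.5, TopHat2 and Cufflinks 2.0.0 are named in the submitters' processing notes. The sources used here state no build, strand setting or counting tool. Raw, unscaled whole-number counts per gene were deposited by the authors. The deposited FPKM equalled the count divided by the column total and by a fixed length per gene, whole for 100% of genes within 0.01 base. The deposited log2 fold change and log2 CPM, the F statistic (a score) and the p-value are the authors' own comparison, whose model no header states. An edgeR model with a replicate 3 term and unscaled library sizes matched them within 1.87e-05 in log2 fold change. Of 17736 identifiers, 17733 matched RefSeq locus tags of assembly v5.5.

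The members and all comparisons were chosen with earlier results of these data known. Named genes were the 7 members, pathway genes with a matched symbol, the models next to a member in the chromosome 17 stretch or overlapping a member, and the 2 genes with the most similar profile. Tests used edgeR 4.0.16 on counts (glmQLFit and glmQLFTest, two-sided, TMM), with limma 3.58.1 and DESeq2 1.42.0 as alternatives, in R 4.3.3. The SE is the log2 difference divided by the root of F. Fits were run on simulated counts that held no length trend and no shift of replicate 3 over all genes, so they do not speak to those features. Ratios over all genes had 0.02 added before logs. The exact tests ran in scipy 1.17.1.

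The deviations of same-numbered libraries from their group means correlated at 0.529, 0.427 and 0.547 for numbers 1, 2 and 3. Unlike numbers within replicates 1 and 2 gave similar values, 0.491 (WT 1 with cmd1 KO 2) and 0.479 (WT 2 with cmd1 KO 1). Replicate 3 against replicates 1 and 2 of the other genotype gave -0.547 to -0.485. The correlations thus set replicate 3 apart but do not show that replicates 1 and 2 were paired by number. The titles of the libraries give a genotype and a number from 1 to 3. The p-values measure the spread between libraries that the labels call biological replicates. In edgeR the spread of each gene is estimated with information from the other tested genes. With only 2 libraries per genotype, the p-values within replicates 1 and 2 rest in part on those genes. The interaction test takes its spread from replicates 1 and 2.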

Additional observations from a re-analysis of the deposited data

Results flagged for a closer look

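Replicate 3 holds 1 library per genotype and has no spread of its own. With its libraries assumed to vary as those of replicates 1 and 2 do, 4 genes passed the edgeR interaction test of the genotype effect in replicate 3 against that in replicates 1 and 2, with differences of 2.25 on the log2 scale for IFT172, 1.27 for FLA10, 1.15 for IFT140 and 0.90 for IFT88. Each effect was less negative in replicate 3. Of all tested genes, 50.7% passed this test. With the length trend removed, IFT140 (adjusted p = 0.646 in edgeR) and IFT88 (adjusted p = 0.307) no longer passed.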

How the results depend on the processing

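Over 6 libraries, DESeq2 called 688 genes, and leaving out single libraries gave 0 to 4227 genes and 0 to 3 members. Leaving out single libraries moved the log2 differences from -1.76 to 0.38 for IFT88, from -2.95 to -0.02 for IFT172, from -0.47 to 0.99 for IFT52, from -1.45 to 0.47 for IFT74, from -1.27 to 0.62 for IFT81, from -1.75 to 0.074 for IFT140 and from -1.35 to 0.16 for FLA10. IFT52 turned negative with library sizes alone (-0.36), with a replicate 3 term on unscaled library sizes (-0.77) and in limma with pseudocounts of 1 (-0.68) and 0.1 (-0.76). With the length trend removed IFT81 (0.15), IFT140 (0.001) and FLA10 (0.025) turned positive.

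Within replicates 1 and 2, length correction gave 3 members past the threshold, IFT172 and FLA10 lower and IFT52 higher, and put IFT81 at 0.17, library sizes alone put IFT52 at -1.10, and DESeq2 ended the call of IFT81. Leaving out single libraries gave 6708 to 7565 genes and 4 to 6 members. For the difference between replicate 3 and replicates 1 and 2, library sizes alone called 7 members, with IFT52 at 1.00, and length correction called 2, with IFT81 at -0.06. The cause of these changes was not tested.

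With the replicate number as a block, 0 genes passed over 6 libraries and IFT172 stood at -1.56 (adjusted p = 0.182 in edgeR). Within replicates 1 and 2 the block gave 7748 genes and 6 members. It changed no call of a member. The difference of the summed level kept its sign under every alternative run, and its tests cannot reach 0.05 in this design. Of 175 single-gene values under alternatives, 132 kept their direction and side of the threshold. Another 27 reversed direction, 10 lost a call and 6 gained one. Over 6 libraries no member was called in the main fit, so keeping the side there meant staying uncalled.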
